A study of Mus musculus with 22 samples.

Results

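The small leucine-rich proteoglycan genes are examined here across 22 lists of ChIP-seq regions (chromatin immunoprecipitation followed by sequencing) from MC3T3-E1 cells, a mouse pre-osteoblast line that lays down mineralized matrix in osteogenic culture. The members are 8 of the 22350 protein-coding genes in the mm9 annotation, chosen by family: Dcn, Lum, Kera, Bgn, Ogn, Omd, Aspn and Fmod. Every listed region whose centre lay within 100 kb of an annotated start of a member was taken, which gave 486 of 360258 regions, 235 of them from lists of transcription factors and 251 from lists of histone marks. Differentiated cells had 15 days of culture with ascorbic acid and glycerol-2-phosphate, and undifferentiated cells had none. Cells of either state received 100 nM calcitriol, the hormonal form of vitamin D, or ethanol vehicle for 3 h. Lists for calcitriol and for vehicle were used for the vitamin D receptor (VDR) and the retinoid X receptor (RXR). For C/EBPβ, RUNX2 and 5 histone marks only the calcitriol lists belong to the series, and their vehicle lists were not analysed here. All groups came from the same unmodified line at passages 5 to 12, and differentiated cultures were also homogenized and spun through sucrose, so preparation and state differ together.

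Each antibody, state and treatment was represented by 1 list with no replicate list beside it, so no difference below has a replicate check and none was tested. The factor lists held 274 to 17950 regions and the mark lists 6983 to 53858. Read depth is unknown, so a longer list cannot be told apart from deeper sequencing or stronger enrichment, nor a stronger site from a larger share of cells carrying it. As a check of the line, H3K4me3 regions held a start of 4 of 7 osteoblast genes (Runx2, Sp7, Col1a1 and Spp1) in differentiated and in undifferentiated cells, but no start of Alpl, Bglap or Ibsp. They held a start of 0 of 11 genes of other lineages in differentiated cells, and of 1, the cartilage collagen gene Col2a1, in undifferentiated cells. Regions of H3K9Ac held a start of 5 of the 7 osteoblast genes in differentiated cells, with Alpl added, and of the same 4 in undifferentiated cells, and of Col2a1 among the 11 other genes in either state. Over all genes, H3K4me3 regions held a start of 42.3% in differentiated and 35% in undifferentiated cells. For H3K9Ac these shares were 51.4% and 49.6% in that order.

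Small leucine-rich proteoglycans are secreted proteins of the extracellular matrix whose curved, repeat-built cores bind collagen fibrils and growth factors. In bone they are laid down with the collagen of osteoid and help to set fibril thickness and the course of mineralization. Decorin (Dcn) and biglycan (Bgn) carry chondroitin or dermatan sulfate chains, and lumican (Lum), keratocan (Kera), fibromodulin (Fmod) and osteomodulin (Omd) can carry keratan sulfate. Osteoglycin (Ogn) is a short member found in bone matrix, and asporin (Aspn) carries a run of aspartate residues in place of a sugar chain and binds calcium. VDR acts mainly as a dimer with RXR on direct repeats of a short half-site with a 3 bp spacer (DR3), C/EBPβ is a leucine-zipper factor active in mesenchymal cells, and RUNX2 is the master factor of the osteoblast.

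The 8 genes lie in 4 loci, all of them on the plus strand of mm9. Dcn (ENSMUSG00000019929.8, chr10:96942245-96980777), Lum (ENSMUSG00000036446.4, chr10:97028135-97035337) and Kera (ENSMUSG00000019932.6, chr10:97069817-97076322) follow each other on chromosome 10, with the related gene Epyc behind them. Aspn (ENSMUSG00000021388.6, chr13:49639812-49662926), Omd (ENSMUSG00000048368.8, chr13:49678135-49687978) and Ogn (ENSMUSG00000021390.5, chr13:49703440-49719869) are nested on chromosome 13 within the introns of the centromere gene Cenpp. Bgn (ENSMUSG00000031375.10, chrX:70728941-70741272) and Fmod (ENSMUSG00000041559.7, chr1:135933831-135944854) are each the only member at their locus, and the leucine-rich repeat gene Prelp lies upstream of Fmod. The windows searched were 327.595 kb for the Dcn-Lum-Kera locus, 263.629 kb for the Ogn-Omd-Aspn locus, 208.456 kb for Bgn and 200.243 kb for Fmod. Genes of a cluster share most of their sites, so site totals are given by locus. Counts of members below are descriptions, and members of a cluster are not independent cases.

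The VDR sites with a DR3 match are shown first, because VDR was the factor whose listing at these genes differed most between states. The regions below, all of 1 width, are mm9 plus-strand sequence read 5′ to 3′, and capitals mark a DR3 match with 1 mismatch, which in each of them lies on the minus strand. The DR3 searched was a pair of half-sites AGGTCA or GGGTCA or AGTTCA or GGTTCA with 3 bp between them, on both strands, with at most 1 mismatch. The Fmod site, at chr1:135899515-135899715, lies 34.2 kb before the gene and was the single VDR site listed near a member in differentiated cells. The Dcn site, at chr10:96948427-96948627, lies in an intron 6.3 kb after the first start. The Bgn site, at chrX:70735572-70735772, lies in an intron 6.7 kb after the first start.
Fmod -34.2 kb: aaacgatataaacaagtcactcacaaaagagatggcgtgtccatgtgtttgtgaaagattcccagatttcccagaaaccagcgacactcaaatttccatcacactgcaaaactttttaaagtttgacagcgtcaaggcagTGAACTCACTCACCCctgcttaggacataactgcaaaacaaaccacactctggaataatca
Dcn +6.3 kb: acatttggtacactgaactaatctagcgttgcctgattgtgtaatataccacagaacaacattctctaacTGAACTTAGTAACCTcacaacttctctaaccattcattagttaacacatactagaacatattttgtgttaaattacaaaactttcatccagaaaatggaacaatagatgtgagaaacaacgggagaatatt
Bgn +6.7 kb: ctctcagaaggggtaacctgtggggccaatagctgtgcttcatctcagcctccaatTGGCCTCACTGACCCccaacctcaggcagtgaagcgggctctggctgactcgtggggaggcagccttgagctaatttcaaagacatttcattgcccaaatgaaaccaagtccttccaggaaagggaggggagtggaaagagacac
Read on the minus strand, the matches are GGGTGAGTGAGTTCA at Fmod, AGGTTACTAAGTTCA at Dcn and GGGTCAGTGAGGCCA at Bgn. The printed Fmod region is that of differentiated cells, and it overlaps the undifferentiated site at chr1:135899497-135899697, which also held a match. That site and the Dcn and Bgn sites were 3 of the 23 VDR sites near the members in calcitriol-treated undifferentiated cells (13%). The exact Clopper-Pearson 95% interval was 2.78 to 33.6, which like the ranges in brackets below covers counting error only. A match was found in 14.8% of all 7000 regions of the undifferentiated list and in 1.18% of windows of the same length 2 kb to either side. With no mismatch allowed, 0 of the 23 sites held a match, against 2.91% of the list. The other 20 VDR sites therefore held no DR3 by this search.

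VDR was listed at every locus in calcitriol-treated undifferentiated cells and almost nowhere else. In differentiated cells 1 VDR site was listed near the members with calcitriol, against 0 with vehicle. In undifferentiated cells 23 sites were listed with calcitriol, against 1 with vehicle. The 23 were made up of 11 at the Dcn-Lum-Kera locus, 10 at Fmod, 1 at Ogn-Omd-Aspn and 1 at Bgn. At least 1 of them lay within 100 kb of 8 of 8 members, where 40.8% of all genes had such a site. With calcitriol in differentiated cells this held for 1 of 8 members, Fmod, against 12.1% of all genes. With vehicle it held for 0 of 8 in differentiated cells (6.13% of all genes) and for 1 of 8, Dcn, in undifferentiated cells (15.7%).

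By gene, Dcn and Fmod each had 10 VDR sites within 100 kb in calcitriol-treated undifferentiated cells, a number reached by 76 of 22350 genes (0.34%). Lum had 7 and Kera had 4, which overlap with the sites of Dcn, and Ogn, Omd, Aspn and Bgn had 1 each. The site of Ogn, Omd and Aspn was the same one. Under calcitriol, 8 of 8 members had fewer VDR sites in differentiated than in undifferentiated cells, where 36% of all genes did. Calcitriol gave more VDR sites than vehicle at 1 of 8 members in differentiated cells (6.87% of all genes) and at 8 of 8 in undifferentiated cells (32.8%). The whole VDR list with calcitriol was also much shorter in differentiated cells, with 871 regions against 7000 in undifferentiated cells. Near the members 1 of 23 undifferentiated sites (4.35%) was listed in differentiated cells, against 11.3% over the list. Within 50 kb of the starts the counts with calcitriol were 1 in differentiated and 12 in undifferentiated cells.

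**Figure D1:**
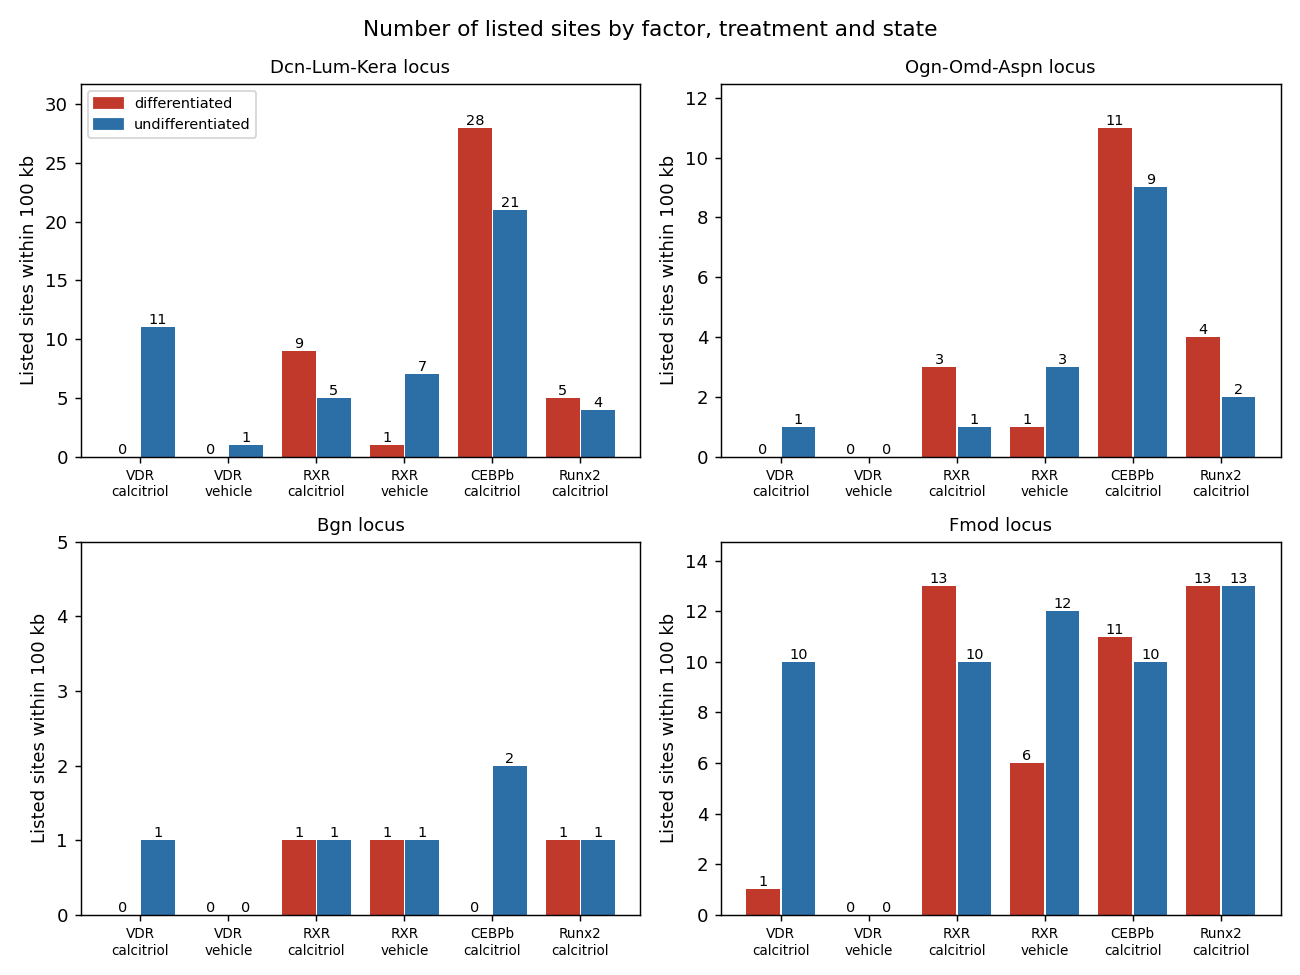
Number of listed sites within 100 kb of the starts (y axis, count) at each locus, by factor and treatment (x axis), with differentiated cells in red to the left of undifferentiated cells in blue; each bar is 1 list. With calcitriol VDR had 0, 0, 0 and 1 sites in differentiated cells, against 11, 1, 1 and 10 in undifferentiated cells at the Dcn-Lum-Kera, Ogn-Omd-Aspn, Bgn and Fmod loci.

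At the Dcn-Lum-Kera locus the 11 VDR sites ran from 82.1 kb before Dcn to 80.2 kb after the first start of Kera. Upstream of decorin, sites lay 82.1, 69.6, 22.4 and 9.9 kb before the start, in sequence with no annotated gene. Inside the gene, sites lay in introns 2.1, 4.6 and 6.3 kb after the first start. Between Dcn and Lum, sites lay 29.6, 17.5 and 0.4 kb before the lumican start, so that the last of them is at the lumican promoter. The site 80.2 kb after Kera is nearer to the start of Gm10754, at 5.0 kb, than to a member. The site 82.1 kb before Dcn was the single VDR site near a member that was also listed with vehicle in undifferentiated cells.

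At Fmod 7 of the 10 VDR sites lay between 55.9 and 95.1 kb before the start, and the other 3 lay 34.2 kb before it, 2.3 kb after it in an intron and 56.0 kb after it. The 6 sites from 59.9 to 95.1 kb upstream are nearer to the start of Prelp, another member of the wider leucine-rich repeat family, and the site at 56.0 kb downstream is nearer to Btg2. Over all loci, 15 of the 23 sites had a member's start as the nearest protein-coding start. The site at Ogn-Omd-Aspn lay 1.0 kb before Omd, within an intron of Cenpp, and the Bgn site was the intronic one printed above.

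**Figure D2:**
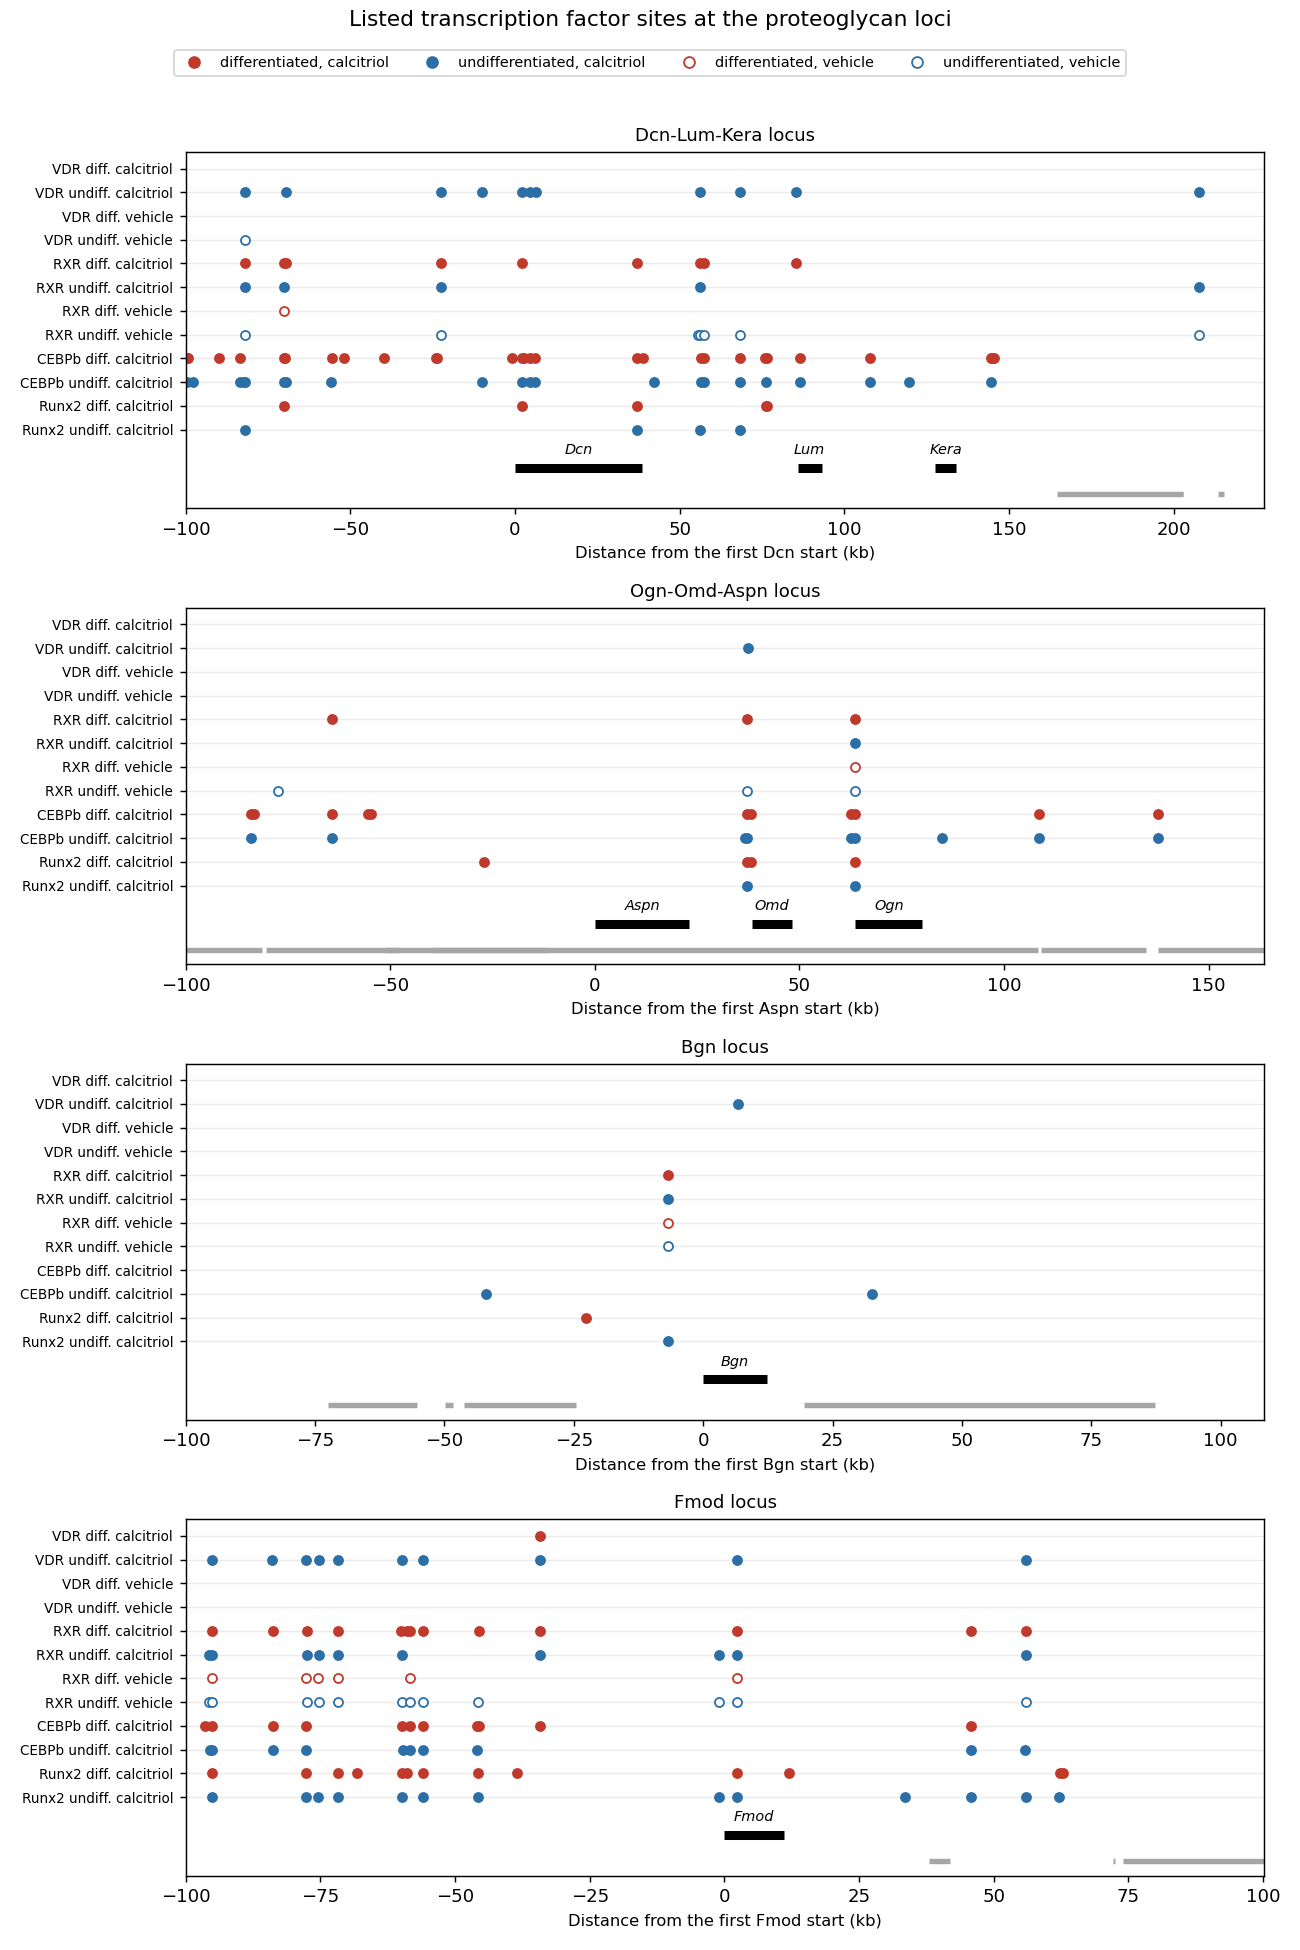
Centres of listed factor sites (points) by distance from the first start of the locus (x axis, kb), 1 row per list, with filled points for calcitriol, open points for vehicle, red for differentiated and blue for undifferentiated cells; black bars are members and grey bars other protein-coding genes. VDR has 1 red point, at Fmod, and 23 filled blue points.

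RXR, the partner of VDR, was listed at the members in every group, and its counts with calcitriol and vehicle stood in opposite order in the 2 states. In differentiated cells 26 RXR sites were listed with calcitriol, against 9 with vehicle. In undifferentiated cells 17 were listed with calcitriol, against 23 with vehicle. In differentiated cells the counts with calcitriol and with vehicle were 9 and 1 at Dcn-Lum-Kera, 3 and 1 at Ogn-Omd-Aspn, 13 and 6 at Fmod and 1 and 1 at Bgn. In undifferentiated cells they were 5 and 7, 1 and 3, 10 and 12, and 1 and 1 at the same loci. Bgn therefore had the same count in all 4 lists, and each of the other loci had more sites with calcitriol in differentiated cells and fewer in undifferentiated cells.

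All 8 members had an RXR site within 100 kb in 3 of the lists: calcitriol in differentiated cells (43.7% of all genes), calcitriol in undifferentiated cells (43.8%) and vehicle in undifferentiated cells (44.2%). Lum and Kera had none with vehicle in differentiated cells, where 6 of 8 members did (33.5% of all genes). In differentiated cells 7 of 8 members had more RXR sites with calcitriol than with vehicle (26.9% of all genes). In undifferentiated cells 7 of 8 had fewer (17.6%). The difference between the states was not tested. The vehicle list of differentiated cells was the shortest RXR list, with 4815 regions against 8126 with calcitriol, and the undifferentiated lists held 7591 with calcitriol and 7834 with vehicle. In differentiated cells 8 of the 26 calcitriol sites (30.8%; whole list 52.6%) were also listed with vehicle, and 8 of the 9 vehicle sites (88.9%; whole list 88.6%) were also listed with calcitriol. In undifferentiated cells 15 of the 17 calcitriol sites (88.2%; whole list 69.3%) were also listed with vehicle, and 15 of the 23 vehicle sites (65.2%; whole list 67.3%) were also listed with calcitriol. Between states, 13 of the 26 RXR sites of differentiated cells with calcitriol (50%; whole list 57.7%) overlapped a site of undifferentiated cells, and 13 of the 17 sites of undifferentiated cells (76.5%; whole list 61.6%) overlapped one of differentiated cells.

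C/EBPβ had the most sites near the members of the 4 factors, with 50 in differentiated and 42 in undifferentiated cells, all with calcitriol. The Dcn-Lum-Kera locus held 28 in differentiated and 21 in undifferentiated cells. The Ogn-Omd-Aspn locus had 11 and 9 in that order, and Fmod had 11 and 10. At Bgn 0 were listed in differentiated and 2 in undifferentiated cells. A C/EBPβ site lay within 100 kb of 7 of 8 members in differentiated cells (61.1% of all genes) and of 8 of 8 in undifferentiated cells (65.8%). Dcn alone had 24 in differentiated and 18 in undifferentiated cells, where the median over all genes was 1 in either state. The members with more sites in differentiated cells numbered 6 (Dcn, Lum, Kera, Omd, Aspn and Fmod), where 15.1% of all genes did, while the whole list was shorter in differentiated (16557 regions) than in undifferentiated cells (17950). Ogn and Bgn had fewer, where 32% of all genes did.

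The C/EBPβ sites of the Dcn locus are shown by 2 of them with 3 motif matches each, both listed in differentiated cells. Capitals mark TTACNNAA or TTGCNNAA on either strand. The first, at chr10:96941372-96941572, lies 0.8 kb before the decorin start and was listed in differentiated cells alone. The second, at chr10:96886452-96886652, lies 55.7 kb before it and overlapped a site of undifferentiated cells.
Dcn -0.8 kb: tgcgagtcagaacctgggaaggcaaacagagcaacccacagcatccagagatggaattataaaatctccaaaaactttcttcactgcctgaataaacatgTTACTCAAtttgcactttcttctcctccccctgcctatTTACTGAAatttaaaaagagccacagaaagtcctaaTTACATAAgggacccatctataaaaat
Dcn -55.7 kb: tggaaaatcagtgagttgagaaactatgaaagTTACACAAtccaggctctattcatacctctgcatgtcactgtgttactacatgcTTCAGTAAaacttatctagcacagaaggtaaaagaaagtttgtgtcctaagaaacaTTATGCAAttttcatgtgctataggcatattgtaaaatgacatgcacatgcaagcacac
Such a match was present in 29 of 50 C/EBPβ sites near the members in differentiated cells (58%; 43.2 to 71.8) and in 20 of 42 in undifferentiated cells (47.6%; 32 to 63.6). Over the whole lists the shares were 56.5% in differentiated and 53.3% in undifferentiated cells, and in flanking windows 16.9% and 16.8% in that order, so the members' intervals held the whole-list shares. By locus, 22 of 28 sites of Dcn-Lum-Kera in differentiated cells held a match (78.6%; 59 to 91.7) and 13 of 21 in undifferentiated cells did (61.9%; 38.4 to 81.9). At Ogn-Omd-Aspn the shares were 4 of 11 (36.4%; 10.9 to 69.2) in differentiated and 4 of 9 (44.4%; 13.7 to 78.8) in undifferentiated cells. At Bgn 1 of 2 sites in undifferentiated cells held one. At Fmod they were 3 of 11 (27.3%; 6.02 to 61) in differentiated and 2 of 10 (20%; 2.52 to 55.6) in undifferentiated cells. In differentiated cells the intervals of Dcn-Lum-Kera and Fmod overlapped between 59 and 61%.

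RUNX2 had 23 sites near the members in differentiated and 20 in undifferentiated cells. Fmod held 13 in each state, the Dcn-Lum-Kera locus 5 in differentiated and 4 in undifferentiated cells, Ogn-Omd-Aspn 4 and 2 in that order, and Bgn 1 in each. All 8 members had a site in differentiated cells (46.5% of all genes) and in undifferentiated cells (59.6%). More sites in differentiated cells were counted at 5 of 8 members (8.72% of all genes) and fewer at 0 of 8 (42.1%). The 5 were Dcn and Lum, and Ogn, Omd and Aspn, which share sites within each cluster. The whole list held 7919 regions in differentiated and 12012 in undifferentiated cells. In differentiated cells 11 of the 23 sites (47.8%; 65.5% over the whole list) overlapped one of undifferentiated cells, and in undifferentiated cells 11 of the 20 (55%; whole list 43.1%) overlapped one of differentiated cells. At the Dcn-Lum-Kera locus 1 site was shared, 37.1 kb after the Dcn start.

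A RUNX2 region at Omd and one at Fmod are printed because each lies in an element listed for 7 factor lists, with capitals for TGTGGTT or TGTGGTC or TGCGGTT or TGCGGTC on either strand. The Omd region, at chr13:49676919-49677119, lies 1.1 kb before the start in an intron of Cenpp. The Fmod region, at chr1:135936067-135936267, lies in an intron 2.3 kb after the start.
Omd -1.1 kb: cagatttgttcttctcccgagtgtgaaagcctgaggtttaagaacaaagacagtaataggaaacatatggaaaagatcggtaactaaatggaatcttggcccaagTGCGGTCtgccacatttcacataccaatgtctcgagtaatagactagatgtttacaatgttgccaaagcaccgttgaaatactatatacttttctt
Fmod +2.3 kb: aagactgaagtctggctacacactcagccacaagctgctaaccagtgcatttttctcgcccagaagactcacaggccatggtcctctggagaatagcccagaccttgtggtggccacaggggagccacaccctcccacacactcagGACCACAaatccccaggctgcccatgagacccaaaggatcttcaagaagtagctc
Such a match was present in 11 of 23 RUNX2 sites near the members in differentiated cells (47.8%; 26.8 to 69.4) and in 9 of 20 in undifferentiated cells (45%; 23.1 to 68.5). Over the whole lists the shares were 55.9% in differentiated and 52.5% in undifferentiated cells, and in flanking windows 8.98% and 8.9% in that order. The members' shares lay below those of the lists, and their wide intervals held the whole-list shares.

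When overlapping factor sites were joined, the 235 sites formed 80 elements, 37 at Dcn-Lum-Kera, 23 at Fmod, 15 at Ogn-Omd-Aspn and 5 at Bgn. Of these, 32 were in 1 list alone, 13 were in at least 6 of the 12 factor lists, and 10 held all 4 factors. The loci differed in make-up. C/EBPβ was the only factor at 20 of the 37 elements of Dcn-Lum-Kera and at 9 of 15 of Ogn-Omd-Aspn, but at 1 of 23 of Fmod. Fmod held 8 of the 13 elements in at least 6 lists, among them the 2 listed most often, 95.1 and 77.6 kb before its start, each in 9 lists. At the Ogn start, an element centred 0.1 kb before the gene was in 8 lists, which were all lists of RXR, C/EBPβ and RUNX2 and none of VDR. For 51 of the 80 elements the nearest protein-coding start was that of a member, and this was so for 36 at Dcn-Lum-Kera, 7 at Fmod, 6 at Ogn-Omd-Aspn and 2 at Bgn.

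The places where VDR was listed with calcitriol in undifferentiated cells were compared with the lists of the other factors. Of the 23 VDR sites, 20 overlapped an RXR, C/EBPβ or RUNX2 site of differentiated cells (87%; 66.4 to 97.2), where 65.6% of the 7000 regions of the VDR list did. They were 10 of 10 at Fmod, 9 of 11 at Dcn-Lum-Kera, 1 of 1 at Ogn-Omd-Aspn and 0 of 1 at Bgn. RXR with calcitriol was listed at 16 of the 23 VDR sites in differentiated cells (69.6%; 47.1 to 86.8) and at 12 in undifferentiated cells (52.2%; 30.6 to 73.2). Over the whole VDR list these shares were 54.3% and 60% in that order. RXR with vehicle was listed at 5 of them in differentiated cells (21.7%; whole list 32.4%) and at 14 in undifferentiated cells (60.9%; whole list 49.3%). C/EBPβ was listed at 13 in differentiated cells (56.5%; 34.5 to 76.8; whole list 32.1%) and at 15 in undifferentiated cells (65.2%; 42.7 to 83.6; whole list 44.1%). RUNX2 was listed at 8 in differentiated cells (34.8%; whole list 34.8%) and at 11 in undifferentiated cells (47.8%; whole list 54%). C/EBPβ in differentiated cells was listed at 6 VDR sites of Dcn-Lum-Kera, 6 of Fmod and 1 of Ogn-Omd-Aspn. The intervals take the 23 sites as separate, but most of them lay at Dcn-Lum-Kera and Fmod. The differences from the whole-list shares were not tested.

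The loci again parted by factor. RUNX2 in differentiated cells was listed at 6 of 10 VDR sites of Fmod and at 1 of 11 of Dcn-Lum-Kera. The 3 VDR sites in the decorin introns each had C/EBPβ in differentiated and in undifferentiated cells, and 1 of them, 2.1 kb after the start, also had RXR and RUNX2 in differentiated cells. The retained Fmod site 34.2 kb upstream had RXR with calcitriol in differentiated and in undifferentiated cells, C/EBPβ in differentiated cells alone and no RUNX2. The lumican promoter site had RXR with calcitriol in differentiated cells as its only other factor. The intronic Bgn site had no other factor in any list. Without the Fmod locus, 4 of 13 VDR sites (30.8%) had RXR with calcitriol in undifferentiated cells.

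**Figure D3:**
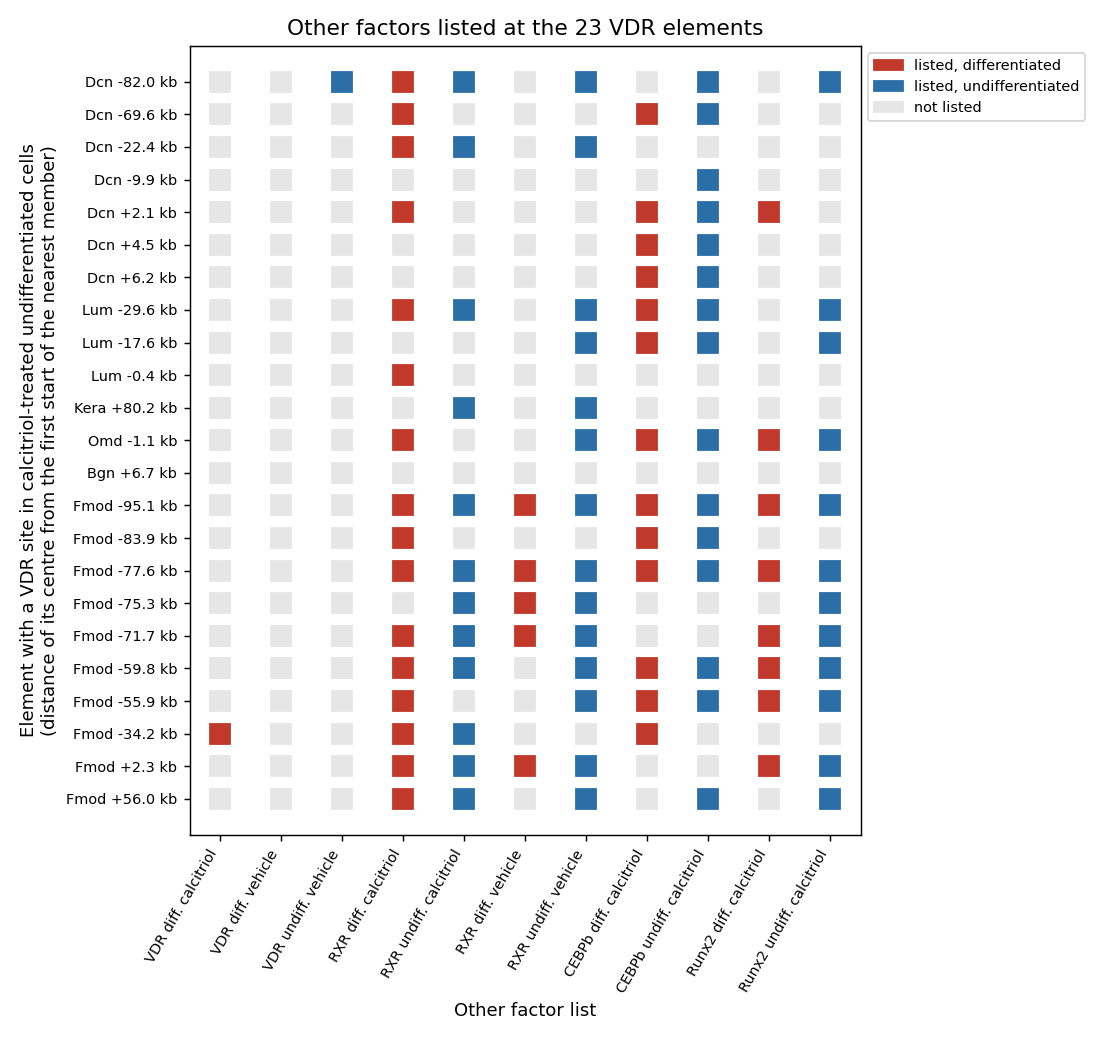
The 23 elements with a VDR site in calcitriol-treated undifferentiated cells (rows, named by the distance in kb of the element's centre from the first start of the nearest member) against the other 11 factor lists (columns); coloured squares are listed, red for differentiated and blue for undifferentiated cells, and grey squares are not. RXR with calcitriol is listed at 16 elements in differentiated and 12 in undifferentiated cells, and VDR in differentiated cells at 1.

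Histone marks covered much of these loci in calcitriol-treated cells and differed most between states for H3K36me3 and H3K4me3. The acetyl mark labelled H4K5Ac (H3K5Ac in the protocol text) covered 619.41 kb of the 4 windows in differentiated and 670.25 kb in undifferentiated cells, a ratio of 0.924 where the whole list gave 0.834. H3K9Ac, which marks active regulatory sequence, covered 213.22 kb in differentiated and 177.88 kb in undifferentiated cells (1.2; whole list 1.32). H3K4me1, a mark of enhancers, covered 553.14 and 569.69 kb in that order (0.971; whole list 0.99). Regions of H4K5Ac held a start of 7 of 8 members in differentiated cells (53.3% of all genes) and of 8 of 8 in undifferentiated cells (53.5%). Those of H3K9Ac did so for 7 of 8 in differentiated (51.4%) and in undifferentiated cells (49.6%), and those of H3K4me1 for 7 of 8 in differentiated (55.4%) and in undifferentiated cells (52.7%), with Kera the member left out each time. All 23 VDR sites lay in H4K5Ac and H3K4me1 regions in differentiated and in undifferentiated cells, close to the share of the whole VDR list. That share was 94.7% in differentiated and 97.6% in undifferentiated cells for H4K5Ac and 96.3% in either state for H3K4me1. H3K9Ac was listed at 21 of them in differentiated cells (91.3%; whole VDR list 74.3%) and at 20 in undifferentiated cells (87%; whole list 60.6%).

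H3K36me3, a mark laid down along transcribed gene bodies, covered 229.85 kb in differentiated and 503.2 kb in undifferentiated cells, a ratio of 0.457 where the whole list gave 0.877. The length was 50.0 kb in differentiated and 221.9 kb in undifferentiated cells at Dcn-Lum-Kera, 124.7 and 207.14 kb at Ogn-Omd-Aspn, 20.31 and 35.45 kb at Fmod and 34.84 and 38.71 kb at Bgn. It was shorter in differentiated cells at 8 of 8 members, where 62.5% of all genes were shorter. Most of the difference lay outside the members' own bodies. The share of the gene body covered was 94.5% in differentiated and 98.8% in undifferentiated cells for Dcn, 97% and 100% for Bgn, 96.9% and 100% for Ogn, 97.3% and 100% for Fmod, 92% and 100% for Aspn, and 68.7% and 100% for Lum. Omd had 0% in differentiated and 78.3% in undifferentiated cells, and Kera had 0% in either state. Aspn, Omd and Ogn lie within Cenpp, so the mark over their bodies cannot be told apart from that over Cenpp. Within the gene bodies and 5 kb before them the length was 101.22 kb in differentiated and 138.04 kb in undifferentiated cells. Regions of H3K36me3 held a start of 2 of 8 members in differentiated cells (25.7% of all genes) and of 6 of 8 in undifferentiated cells (28%). These counts turn on short distances. In differentiated cells a region began 59 bp after the nearer Fmod start and 512 bp after the Ogn start. Dcn and Bgn were counted there through later starts, since their regions began 2129 and 366 bp after the first. At the VDR sites H3K36me3 was listed at 6 of 23 in differentiated cells (26.1%; 10.2 to 48.4; whole VDR list 20%) and at 12 of 23 in undifferentiated cells (52.2%; 30.6 to 73.2; whole list 29.8%). The 12 were 9 at Dcn-Lum-Kera, under a few long regions, 2 at Fmod and 1 at Bgn. The 6 were 3, 2 and 1 at the same loci.

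H3K4me3, a mark of active promoters, covered 21.14 kb in differentiated and 82.67 kb in undifferentiated cells, a ratio of 0.256 where the whole list gave 0.433. The median region of the list was 2225 bp wide in differentiated and 5256 bp in undifferentiated cells. The covered length was greater in differentiated cells at 4 of 8 members, Dcn, Lum, Kera and Aspn (11.8% of all genes). It was 3.81 kb in differentiated and 0.0 kb in undifferentiated cells at Dcn and at Lum, which share these regions. At Kera it was 2.27 and 0.0 kb in that order, from the region in Lum. At Aspn it was 2.97 and 2.82 kb, and the first of these was the region at the Ogn start. At Ogn, Omd, Bgn and Fmod it was shorter (61.2%). Part of the undifferentiated length lay at neighbours. All 20.83 kb at Ogn-Omd-Aspn lay in regions over the starts of Cenpp, Nol8 and Iars. At Fmod a region from 31.869 to 48.222 kb after the first start lay over Btg2. H3K4me3 regions held a start of 4 of 8 members in differentiated cells, Dcn, Ogn, Bgn and Fmod (42.3% of all genes). In undifferentiated cells they held that of 2 of 8, Bgn and Fmod (35%). Bgn and Fmod were marked in either state, over narrower regions in differentiated cells: 2672 bp in differentiated and 28169 bp in undifferentiated cells at Bgn, and 3206 and 13119 bp in that order at Fmod.

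Dcn and Ogn were marked at a start in differentiated cells alone, which held for 8.64% of all genes. The Dcn region ran from 87 bp before to 1451 bp after the start, and 7.86% of its list had a lower score. The Ogn region ran from 357 bp before to 2610 bp after the start, and 59.1% of its list had a lower score. In undifferentiated cells no H3K4me3 region was listed at the Dcn-Lum-Kera locus. In differentiated cells a region began 95 bp after the lumican start and covered 31.5% of the gene. Omd and Aspn had no H3K4me3 region over the start or the body in either state, although H3K9Ac, H4K5Ac and H3K4me1 regions held their starts in differentiated and in undifferentiated cells. Kera, whose product is best known from the cornea, had none of the marks over its start in differentiated cells and only H4K5Ac in undifferentiated cells.

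**Figure D4:**
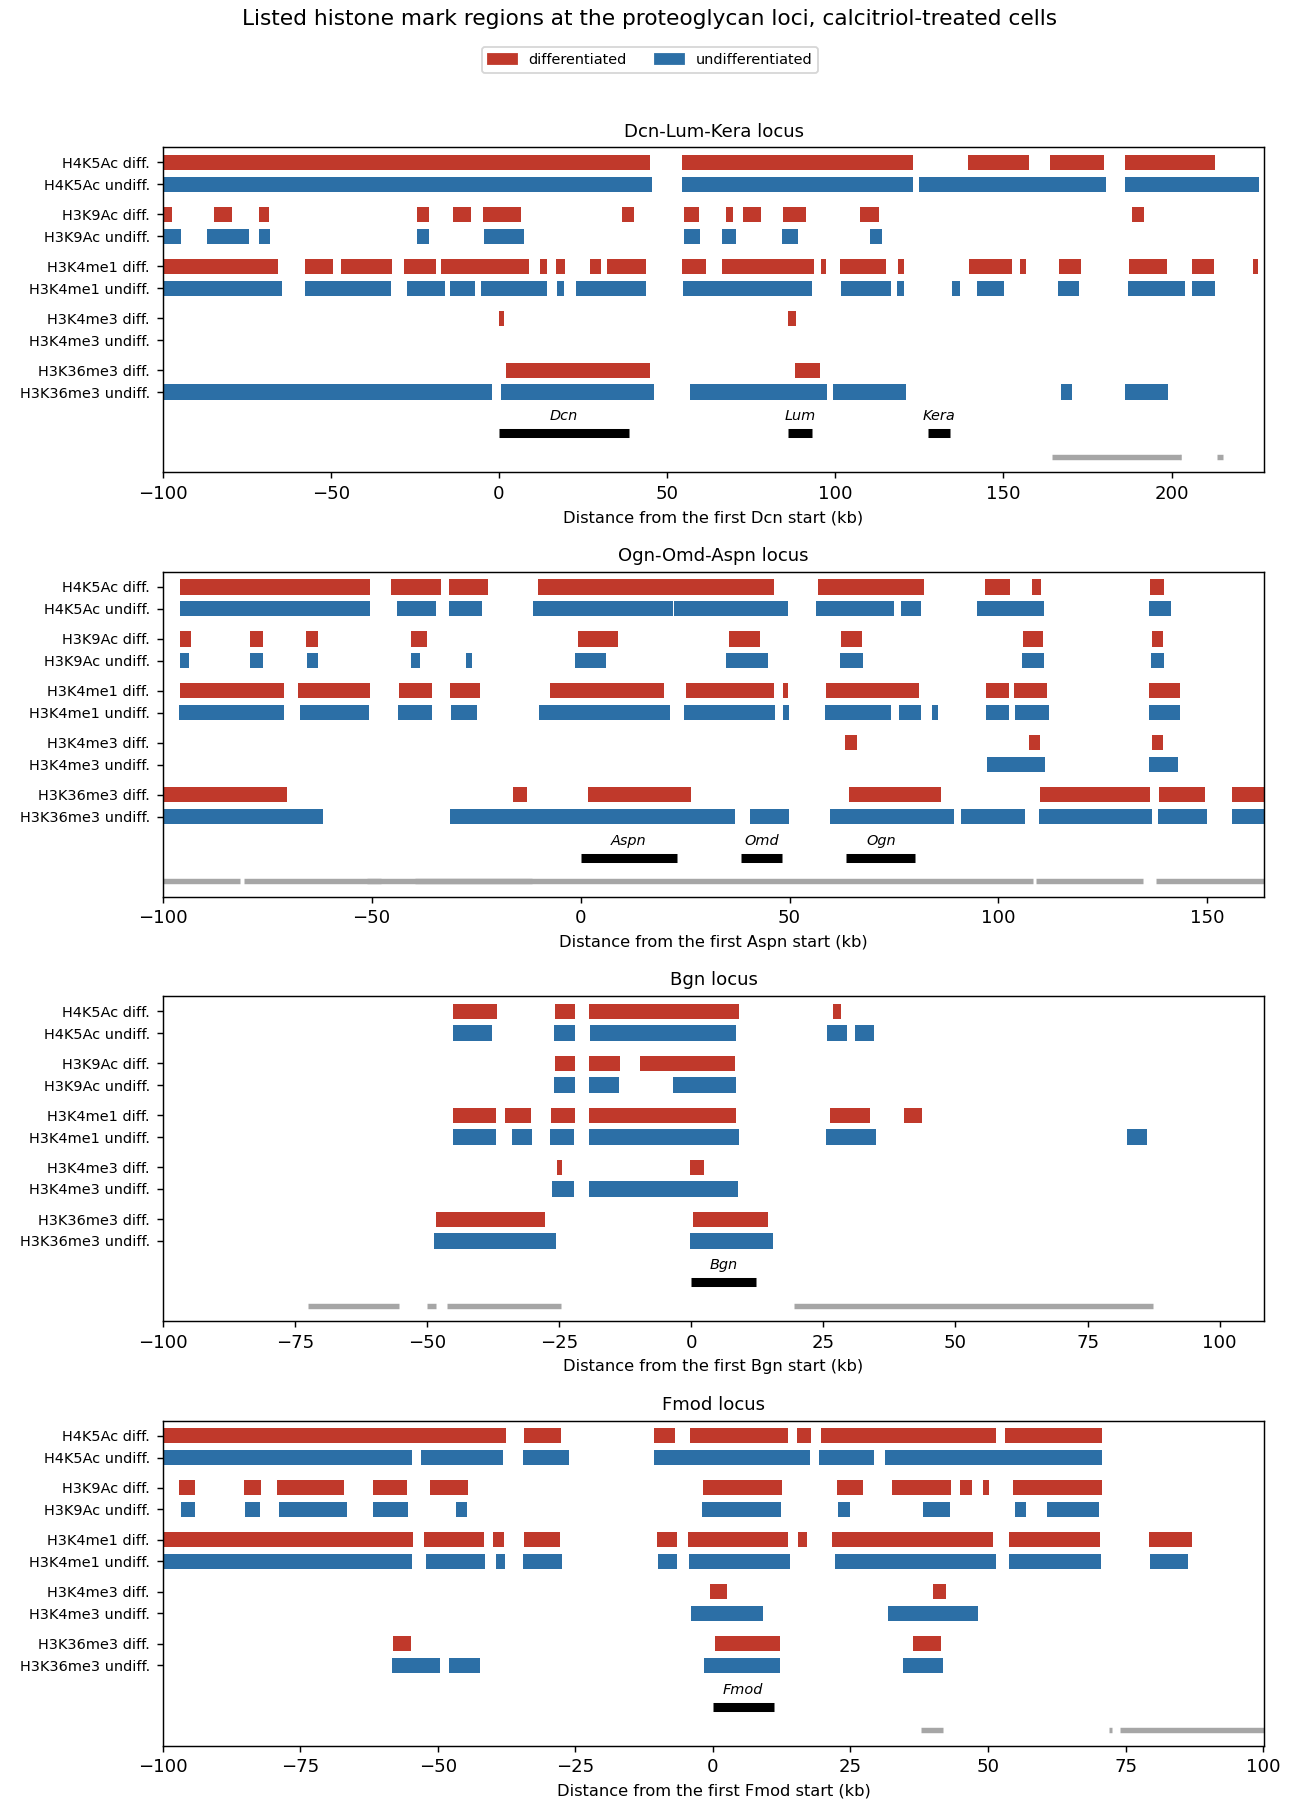
Listed regions of 5 histone marks in calcitriol-treated cells (bars) by distance from the first start of the locus (x axis, kb), with differentiated cells in red above undifferentiated cells in blue; black bars are members and grey bars other protein-coding genes. H3K4me3 at Bgn spans 2672 bp in differentiated and 28169 bp in undifferentiated cells, and H3K36me3 before Dcn is listed in undifferentiated cells only.

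**Figure D5:**
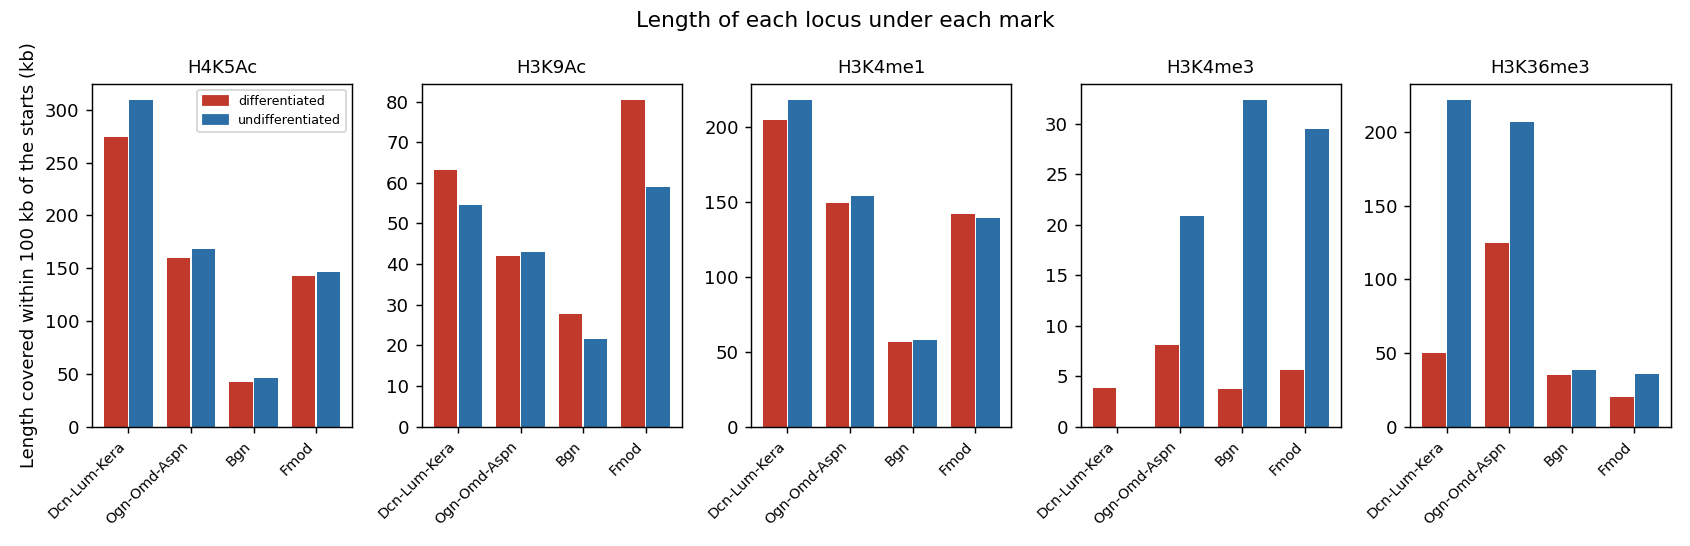
Length covered by each mark within 100 kb of the starts (y axis, kb; the scale differs between panels) at each locus (x axis), with differentiated cells in red to the left of undifferentiated cells in blue; each bar is 1 list. H3K36me3 covers 50.0 kb in differentiated and 221.9 kb in undifferentiated cells at Dcn-Lum-Kera.

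Genes that act with the members were counted in the same way. Of 10 other leucine-rich repeat matrix genes, 3 had a VDR site within 100 kb with calcitriol in differentiated and 8 in undifferentiated cells (all genes 12.1% and 40.8% in that order). The highest counts were those of Optc and Prelp, each with 3 in differentiated and 12 in undifferentiated cells, and they share the upstream Fmod sites. Epyc and Ecm2 likewise share VDR sites of the Dcn-Lum-Kera and Ogn-Omd-Aspn loci in undifferentiated cells. The counts of this list are therefore not separate from those of the members. Of 13 genes for collagens and other fibril partners, 2 had a VDR site in differentiated and 12 in undifferentiated cells, with a median of 0 and 4 sites in that order. Col6a3 had 0 and 9, Col1a2 had 0 and 8, and Col12a1 had 1 and 5. Of 22 genes that assemble glycosaminoglycan chains, 3 had a VDR site in differentiated and 9 in undifferentiated cells, close to the share of all genes. B3gat3, which completes the linker between core and chain, had 1 and 4. Of 5 genes whose products trim these matrix proteins or procollagen, 1 had a VDR site in differentiated and 3 in undifferentiated cells, with Adamts4, an aggrecan-cleaving protease, at 1 and 5.

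Likeness to the members was ranked among protein-coding genes that share no site with a member. Of these, the 5 whose counts over the 12 factor lists were nearest to the members' mean pattern were Lrrc17, Farsb, Pgpep1l, Leprel1 and Fndc7. Likeness was the Euclidean distance over log2(count + 1), which was 0.67 for Lrrc17, 0.8 for Farsb, 0.93 for Pgpep1l, 0.95 for Leprel1 and 1.0 for Fndc7, against a median of 5.25 over all genes. Lrrc17 had 0 VDR sites with calcitriol in differentiated and 3 in undifferentiated cells. Its RXR counts were 5 with calcitriol against 1 with vehicle in differentiated cells, and 2 with calcitriol against 5 with vehicle in undifferentiated cells. Lrrc17 was chosen by these same counts, so its likeness to the members is not a separate result.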

How the data were processed

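The submitters' processing notes name Bowtie, HOMER and mm9, with versions and thresholds not given in the sources used here. Each deposited file holds chromosome, start, end, name, score and strand for 1 antibody, state and treatment. Region names count merged peaks, and every region was merged from at least 2, so a list was taken to hold what the authors' replicates had in common. The score deposited by the authors was 0 throughout the factor lists, whose regions are all of 1 width. In the mark lists its meaning is not given, and it was used only for ranks within a list. No list holds read counts, so depth is unknown and no test between groups was made. The antibody is called H4K5Ac as in the sample labels, although the protocol text names H3K5Ac.

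Regions on chromosomes 1 to 19 and X were placed on the NCBIM37 (mm9) sequence and GENCODE vM1 genes with Python 3.11.15 and numpy 2.4.6, and intervals were computed with scipy 1.17.1. A region was near a gene when its midpoint was at most 100 kb from one of the gene's annotated starts, and 2 sites with 1 bp or more in common were called shared. Window counts, covered lengths and the DR3 search with no mismatch were tested on simulated data. The overlap search, the DR3 search with 1 mismatch and the RUNX and C/EBP searches were not. Backgrounds are counts over all 22350 protein-coding genes. The named genes were the 8 members, their neighbours, 3 examples per related list by VDR count and the 5 nearest by likeness. Members, lists and comparisons were chosen with earlier results of these data known. Alternatives were windows of 50 and 200 kb, regions of at least 2 merged peaks, 1 start per gene, the lowest 25% of scores left out, gene bodies with 5 kb before them, an overlap of 101 bp, no mismatch in DR3, and settings added after seeing the data.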

Additional observations from a re-analysis of the deposited data

Results flagged for a closer look

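The order of RXR sites with calcitriol and vehicle near the members was opposite in the 2 states. Calcitriol minus vehicle was 17 sites in differentiated cells (26 with calcitriol, 9 with vehicle) and -6 in undifferentiated cells (17 with calcitriol, 23 with vehicle). Each group is 1 list, so the difference between the states was not tested. The whole RXR lists stood in the same opposite order. In differentiated cells they held 8126 regions with calcitriol and 4815 with vehicle, the shortest RXR list. In undifferentiated cells they held 7591 with calcitriol and 7834 with vehicle. The part of list length in this result was not tested.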

How the results depend on the processing

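Among 84 alternatives to 15 results (60 planned, 24 added after seeing the data), 19 changed no value at any result: 10 that kept regions of at least 2 merged peaks, which every listed region already had, 8 that used 1 start per gene and 1 that asked for a longer overlap. Of the other 65, 43 stayed within 1.5 times of the reported difference or, for shares, within its interval, 22 did not, and none turned a difference round. With a 50 kb window, calcitriol minus vehicle was 12 VDR sites in undifferentiated cells and 10 RXR sites in differentiated cells, and differentiated minus undifferentiated was -11 VDR sites and -8.66 kb of H3K4me1. With a 200 kb window, calcitriol minus vehicle was 3 VDR sites in differentiated cells and -2 RXR sites in undifferentiated cells, and differentiated minus undifferentiated was 5 C/EBPβ sites and -7.06 kb of H3K4me1. In gene bodies with 5 kb before them, differentiated minus undifferentiated was -9.09 kb of H4K5Ac, 4.1 kb of H3K9Ac, -9.37 kb of H3K4me1, -14.38 kb of H3K4me3 and -36.81 kb of H3K36me3, over a shorter stretch of sequence. Without the Fmod locus (added after seeing the data), calcitriol minus vehicle was 0 VDR sites in differentiated cells, 12 VDR sites in undifferentiated cells and 10 RXR sites in differentiated cells, and differentiated minus undifferentiated was -13 VDR sites, 13.84 kb of H3K9Ac and -37.66 kb of H3K4me3. With sites kept only where the nearest protein-coding start was that of a member (also added), calcitriol minus vehicle was 14 VDR sites in undifferentiated cells and differentiated minus undifferentiated was -14. With no mismatch allowed, 0% of VDR sites held a DR3. No paired analysis was possible because each group is 1 list, and for the same reason no replicate could be left out. The unknown depth limits every count: an unlisted site is not shown to be unoccupied.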
